A study of Mus musculus with 20 samples.

Results

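Cytosolic ribosomal protein genes encode the protein components of the small (40S) and large (60S) subunits of the ribosome outside mitochondria. They were taken from the array's annotation as probe sets that name a single gene whose symbol is that of a ribosomal protein (Rpl or Rps with a number, or Rplp0, Rplp1, Rplp2 or Rpsa), leaving out the kinases named Rps6k. A gene with several such probe sets was represented by its brightest one over the 20 arrays. Of 48 genes found this way, 45 had a log2 value above 4 in at least 5 arrays and are described here, 23 of the large and 22 of the small subunit, among 8068 genes tested. All 45 lay above 4 in all 20 arrays, so no member entered through 1 group alone. Rps27, with a mean of 4.14, lay closest inside the threshold. Rpl39 (mean 3.93, highest array 4.05), Rpl3l (2.50) and Rpl39l (2.32) lay outside it. A further 27 ribosomal protein genes are named only on probe sets shared with other genes, mostly pseudogenes, and are not members.

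The study compared fetal lungs with and without the glucocorticoid receptor (GR, gene Nr3c1) in mesenchymal cells. Left lung lobes of C57Bl6 mouse embryos gave the RNA, which was hybridised to Affymetrix arrays, with 1 animal per array and 5 animals in each of 4 groups. Controls carried the floxed GR gene, and mutants (GRCol1-Cre) carried in addition a Cre recombinase expressed from collagen I alpha-2 sequences, which act in mesenchymal cells; the labels describe the loss as limited to mesenchyme. Both genotypes were sampled at the embryonic days E16.5 and E18.5, the later shortly before birth. The floxed allele is shared by all 4 groups, and a control carrying Cre without the floxed allele was not analysed here. Values are log2 intensities, and a difference of 1 on this scale is a doubling.

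Whole lobes were measured, so fewer cells of a type and less RNA per cell cannot be told apart. Nr3c1 itself fell from 8.78 ± 0.22 (SD, n = 5) to 7.07 ± 0.45 in E16.5 mutants and from 9.42 ± 0.22 to 7.80 ± 0.19 in E18.5 mutants, leaving 30.4% and 32.5% of the control level. The lung markers Sftpc (14.60 to 15.22 over the 20 arrays), Tcf21 and Col1a2 were bright, while the probe set of Nkx2-1, a lung epithelial transcription factor, was dim (1.87 to 2.63). E18.5 control replicate 3 stood apart from its group: its mean over 22 mitosis genes was 9.22 against 7.88 to 7.97 in the other 4, and its mean over 6 red blood cell genes was 6.63 against 4.83 to 5.23. Results that rest on it are given with and without it.

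Ribosomal proteins are made in amounts matched to ribosomal RNA, and their assembly into subunits takes place mostly in the nucleolus with the help of biogenesis factors. Their messenger RNAs are among the most abundant of growing cells and begin with a run of pyrimidines, the terminal oligopyrimidine (TOP) tract, through which the mTOR pathway controls their translation. Regulation at that step is not seen in messenger RNA levels. Most members are single genes on the ribosome, and a few, such as Rpl7l1, Rpl22l1, Rps27l and Rps4l, are paralogs of a standard subunit protein.

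The start sites of the members were searched for runs of pyrimidines, which need not be TOP tracts. RefSeq promoter windows (250 bases before to 50 after the start, GRCm38.p6) matched 39 of the 45 members, with 46 windows. A run of 6 or more pyrimidines (C or T) that overlaps the 10 bases on either side of the start was present in 54.3% of the member windows and in 29.2% of all 32851 windows. The sequence CCGGAAG, searched on both strands, was present in 41.3% of member windows and 8.86% of all, AAGATGGC in 8.7% and 2.75%, and TATAAA in 10.9% and 13.6%. The following 30 bases around the start (15 on each side, on the gene's strand) are shown for 3 members that were higher in E18.5 mutants and carry a run, 2 that were higher and carry none, and 2 that were not called there and carry one. Capitals mark the run, which can extend past the stretch shown.
Rpl14 (chr9:120571502-120571531, + strand): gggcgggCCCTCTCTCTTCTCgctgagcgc
Rpl35 (chr2:39005117-39005146, - strand): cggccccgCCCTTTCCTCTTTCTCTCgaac
Rps6 (chr4:86857353-86857382, - strand): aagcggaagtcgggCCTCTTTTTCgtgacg
Rpsa (chr9:120127751-120127780, + strand): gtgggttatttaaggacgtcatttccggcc
Rpl7l1 (chr17:46782642-46782671, - strand): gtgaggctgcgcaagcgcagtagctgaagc
Rplp2 (chr7:141447636-141447665, + strand): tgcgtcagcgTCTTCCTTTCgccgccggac
Rps10 (chr17:27635230-27635259, - strand): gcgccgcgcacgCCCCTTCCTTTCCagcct
The run is present in 7 of the 10 windows of members higher in E18.5 mutants and in 13 of the 25 windows of members called in no comparison. CCGGAAG is in 7 of those 10 and in 10 of those 25. Both sequences are thus found in called and uncalled members. Some runs lie wholly before the annotated start, as in Rpl37 and Rps25 among the called members and Rpl4 and Rpl10a among the uncalled. A run placed so is not part of a message that begins at that start. These counts are descriptions of a small number of windows, and no match says only that these letters are not in the window.

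Most members had bright probe sets: 35 of the 45 had a mean of 13 or more over the 20 arrays. The values of different probe sets depend on their probes, so they give no order of the genes' levels. The brightest probe sets were those of Rps29 (15.25), Rpl13a (15.12) and Rplp2 (15.07) and the dimmest those of Rps27 (4.14), Rpl12 (6.28) and Rps25 (8.14), while probe sets that Rps27 and Rpl12 share with other genes read 14.91 and 13.95. The paralogs Rps4l, on a mean of 11.05, and Rps4x, on 14.88, were called in no comparison, with E18.5 mutant differences of 0.12 and 0.05.

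The first comparison asked whether loss of the mesenchymal receptor changed ribosomal protein messages at E16.5. None of the 45 members was called (limma, adjusted p under 0.05 over all genes tested), where 0.248% of all genes were (0.0496% higher and 0.198% lower), and none had an unadjusted p under 0.05. The median difference between mutants and controls was 0.01, against 0.01 over all genes tested. The 95% interval of 42 of the 45 differences lay within a 1.25-fold change in either direction. The widest belonged to Rpl12 (-0.52 to 0.88), which has a dim and variable probe set. Differences of over 0.1 were seen in 4 members, Rpl12 (0.18), Rpl14 (0.15), Rps6 (0.12) and Rpl7l1 (0.11), and none passed the test. Sex and genotype largely coincide at this stage, with 1 female among 5 controls and 5 among 5 mutants by Xist and Y-linked genes. At E18.5, 3 of 5 controls and 2 of 5 mutants were female. The balance of the sexes thus also differs between the ages in both genotypes, which bears on every comparison between ages below.

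At E18.5 every call among the members was an increase in mutants. Of the 45 members, 11 were higher in mutants and none was lower, and 42 of the 45 differences were above 0. Over all genes tested 18.6% were called higher and 15.9% lower, and 34.5% in either direction, so the share of members called, 24.4%, was below that of all genes called in either direction and above that of genes called higher. The median difference was 0.09 (a rise of 6.63%), against 0.03 over all genes tested. The size of a member's change was small: the median absolute difference was 0.09, against 0.20 over all genes. Both subunits took part, with 6 of 23 large-subunit and 5 of 22 small-subunit members called. Of the 35 members with a mean of 13 or more, 6 were higher (17.1%). Among the 117 other genes that bright, 16.2% were higher and 12.8% lower. Of the 10 dimmer members, 5 were higher (50%), against 18.6% higher and 16% lower among other genes with a mean under 13. Without E18.5 control replicate 3 the count over all 45 members was 13, again all higher. In that fit 22.9% of all genes were called higher and 18.6% lower. Rpl35 and Rpl37 were then no longer called, and Rpl19, Rpl22, Rps15 and Rps18 were.

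**Figure D1:**
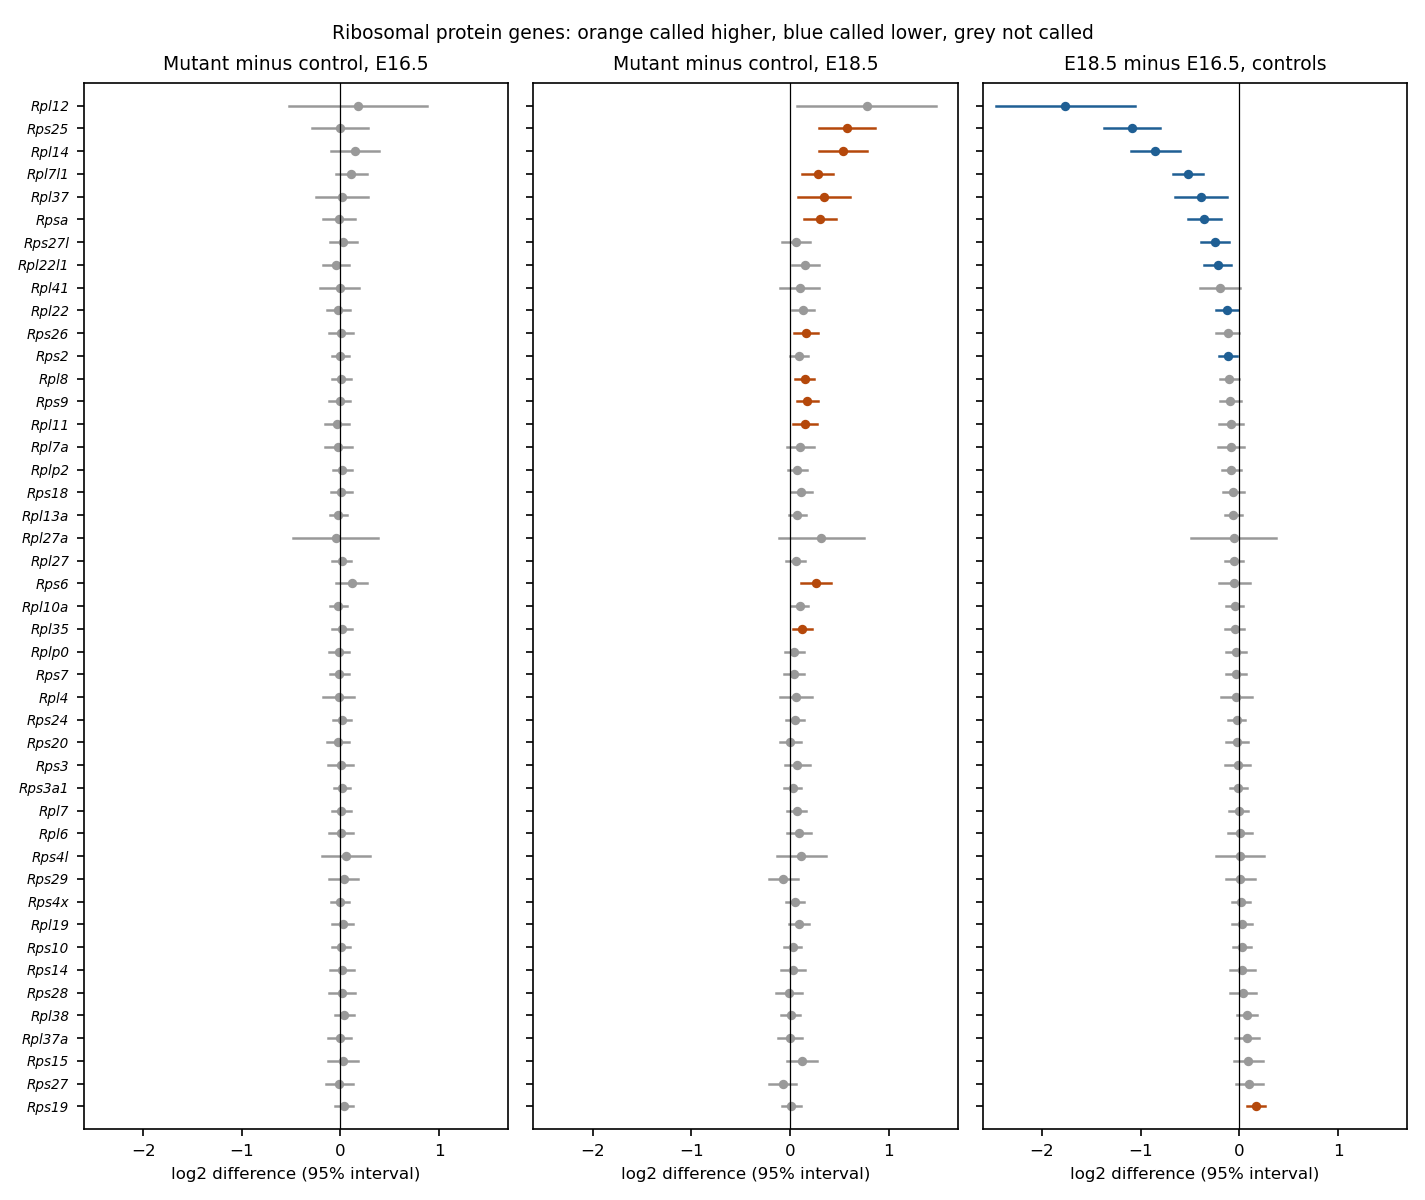
Log2 difference and 95% interval of each of the 45 ribosomal protein genes (rows, ordered by the change in controls) for mutant minus control at E16.5 and at E18.5 and for E18.5 minus E16.5 in controls (x axes, log2). At E16.5 no gene is called; at E18.5, 11 are called higher in mutants, and in controls 10 fell and 1 rose between the stages.

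Among small-subunit members, Rps25 showed the largest called difference. Rps25 is a 40S protein known for its part in initiation at internal ribosome entry sites. Its log2 values were 7.41, 7.61, 7.63, 7.06 and 7.54 in E18.5 controls and 7.99, 8.34, 7.90, 8.33 and 7.61 in E18.5 mutants. The lowest mutant, replicate 5, lay within the control range, and the other 4 lay above it. The difference was 0.58 (SE 0.14, limma adjusted p = 0.00307), a rise of 49.6% on this dim probe set (mean 8.14). A probe set shared with other genes moved the same way by less, as given below.

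Rpsa, a 40S protein also known as the laminin receptor, read 13.52, 13.59, 13.94, 13.61 and 13.48 in E18.5 controls and 13.98, 14.02, 13.88, 13.88 and 13.89 in E18.5 mutants. Control replicate 3 was as high as the mutants, and the other 4 controls lay below all of them. The difference was 0.30 (SE 0.08, limma adjusted p = 0.0062), and 0.38 without that control.

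Rps6, the 40S protein phosphorylated by S6 kinases downstream of mTOR, read 10.41, 10.35, 10.15, 10.40 and 10.23 in controls and 10.39, 10.52, 10.64, 10.53 and 10.77 in mutants at E18.5. Only mutant replicate 1 lay within the control range. The difference was 0.26 (SE 0.07, limma adjusted p = 0.0102). All of the passing probe sets that name Rps6 together with a pseudogene went uncalled, so the call rests on the single-gene probe set.

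Rps9 differed by 0.18 (SE 0.05, limma adjusted p = 0.0121), with 13.48, 13.49, 13.65, 13.53 and 13.40 in controls and 13.66, 13.70, 13.69, 13.66 and 13.73 in mutants. All 5 mutants lay above all 5 controls, although control replicate 3 (13.65) came close to the lowest mutant (13.66). With the mean of all single-gene probe sets in place of the brightest, Rps9 was not called (adjusted p = 0.762). Rps26, mutated in Diamond-Blackfan anaemia, was called at a difference of 0.17 (limma adjusted p = 0.0317), with overlapping groups.

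Of the large-subunit members, Rpl14 had the largest called difference. Its values were 8.05, 8.22, 8.66, 8.32 and 7.95 in E18.5 controls and 9.03, 8.60, 8.69, 8.76 and 8.83 in mutants. Control replicate 3 lay inside the mutant range and the other controls below it. The difference was 0.54 (SE 0.12, limma adjusted p = 0.00169), a rise of 45.5% on this probe set (mean 8.84). Probe sets shared with other genes moved the same way by less, as given below.

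Rpl37 read 10.45, 10.50, 10.25, 10.44 and 10.14 in controls and 10.44, 10.80, 10.68, 10.67 and 10.92 in mutants, a difference of 0.35 (SE 0.13, limma adjusted p = 0.0394). Mutant replicate 1 lay within the control range, and leaving out E18.5 control replicate 3 ended the call (adjusted p = 0.0652). Rpl7l1, a paralog of Rpl7 found in precursors of the large subunit, read 10.22, 10.32, 10.11, 10.42 and 10.24 in controls and 10.36, 10.45, 10.59, 10.68 and 10.65 in mutants, a difference of 0.28 (SE 0.07, limma adjusted p = 0.00659). Mutant replicate 1 lay within the control range and the other 4 above it. A second single-gene probe set for Rpl7l1 gave 0.28.

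Smaller differences were called for Rpl8 (0.15, limma adjusted p = 0.0185), which lies near the peptidyl transferase centre, Rpl11 (0.15, adjusted p = 0.0492), which also binds the p53 regulator Mdm2, and Rpl35 (0.13, adjusted p = 0.0416). Leaving out each of the 20 arrays in turn ended the call of Rpl11 in 16 fits, of Rpl35 in 11, of Rpl37 in 7 and of Rps26 in 6, and of no other of the 11. In 5 members all mutants lay above all controls: Rps2, Rps9, Rpl8, Rpl10a and Rpl35, against 8.27% of all genes, and in none did all lie below, against 9.13%. Of these, Rps2 (adjusted p = 0.113) and Rpl10a (limma adjusted p = 0.0664) were not called. Rpl12 had the largest difference of all members, 0.78, and did not pass the test (SE 0.34, adjusted p = 0.0807). Its values were 5.31, 5.38, 4.42, 5.35 and 5.32 in controls and 5.41, 5.93, 4.74, 7.25 and 6.34 in mutants, so the mutants ranged from 4.74 to 7.25.

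**Figure D2:**
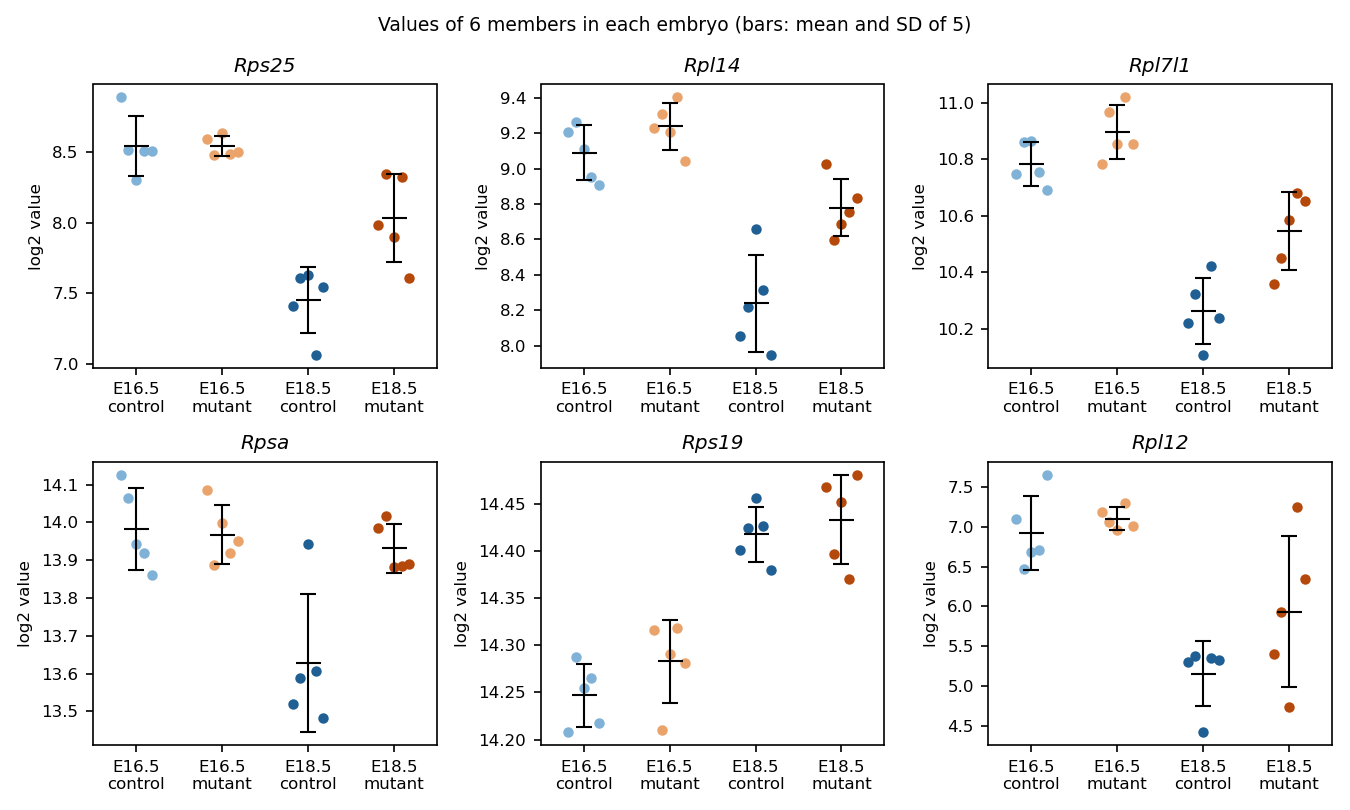
Log2 value (y axes, each with its own range) of 6 ribosomal protein genes in each embryo, by group, with bars for the mean and SD of 5 animals. Rps25, Rpl14, Rpl7l1 and Rpl12 are lower at E18.5 than at E16.5 in both genotypes, Rpsa is lower in 4 of the 5 E18.5 controls, and Rps19 is higher at E18.5 in both genotypes.

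The second question was how these genes change with age. In controls, 10 of 45 members fell between E16.5 and E18.5 and 1 rose, where 35.5% and 35.3% of all genes tested fell and rose, and 70.9% changed in either direction. The share of members that changed, 24.4%, was thus well under that of all genes. The median change was -0.05 against -0.01, and the median absolute change 0.06 against 0.44. Without E18.5 control replicate 3 the count was 15, with 14 lower, where 36.5% of all genes were lower and 35.5% higher. This comparison shares the E18.5 controls with the mutant comparison at that stage, so the values of the 2 are not independent.

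Rpl12, a protein of the base of the large subunit's stalk, fell by 1.76 (SE 0.34, limma adjusted p = 0.000117), from 7.10, 6.47, 6.68, 6.70 and 7.65 in E16.5 controls. None of the E18.5 controls reached the lowest E16.5 control. Rps25 read 8.89, 8.52, 8.30, 8.50 and 8.50 in E16.5 controls and fell by 1.09 (SE 0.14, limma adjusted p = 8.77e-07), a percent change of -53.1. Rpl14 read 9.21, 9.26, 9.11, 8.95 and 8.91 and fell by 0.85 (SE 0.12, limma adjusted p = 2.96e-06). For both genes the ages did not overlap.

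Rpl7l1 read 10.75, 10.86, 10.87, 10.75 and 10.69 in E16.5 controls and fell by 0.52 (SE 0.07, limma adjusted p = 4.49e-06), with no overlap. Rpl37 fell by 0.38 and Rpsa by 0.35 (limma adjusted p = 0.0108 and 0.000534). Rpsa read 14.13, 14.06, 13.94, 13.92 and 13.86 at E16.5, and only E18.5 control replicate 3 lay within that range. Rps27l, the p53-inducible paralog of Rps27, fell by 0.25 and Rpl22l1, a paralog of Rpl22, by 0.22, while Rpl22 itself fell by 0.12 and Rps2 by 0.11, calls that leaving out an array ended in 15 and 4 of 20 fits. In 7 members all E18.5 controls lay below all E16.5 controls, and in 1 above them, against 25.3% and 25.9% of all genes.

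Rps19, mutated more often than any other gene in Diamond-Blackfan anaemia, was the member that rose. It read 14.21, 14.29, 14.25, 14.27 and 14.22 in E16.5 controls and 14.40, 14.42, 14.46, 14.43 and 14.38 in E18.5 controls. The groups did not overlap, and the rise was 0.17 (SE 0.04, limma adjusted p = 0.00207). Under median centring of each array the rise of Rps19 missed the threshold (limma adjusted p = 0.0873), 20 members fell and none rose. That scaling shifted genes down generally: the median change over all genes in controls went from -0.01 to -0.09.

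In mutants, 5 members fell between the ages and 2 rose, against 56.2% of all genes changed in either direction (27.6% lower and 28.7% higher). Those that fell were Rpl12 (by 1.17), Rps25 (by 0.51), Rpl14 (by 0.46), Rpl7l1 (by 0.35) and Rps27l (by 0.21), which also fell in controls. Those that rose were Rps19 (0.15) and Rps15 (0.19), whose call ended in 6 of 20 fits without an array. All E18.5 mutants lay above all E16.5 mutants in 5 members and below them in 4, against 22.1% and 20.3% of all genes. Under median centring of each array 5 fell and none rose (limma adjusted p = 0.0937 for Rps19), while the median change over all genes went from 0.0009 to -0.05. Without that centring the median change over members was 0.04, so more members lay above 0 (32) than below it.

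Testing whether the mutant effect itself differed between the ages called no member, where 8.4% of all genes were called (3.62% higher and 4.78% lower), and 8 members had an unadjusted p under 0.05. The smallest adjusted p-values were those of Rps25 (limma adjusted p = 0.0646) and Rpsa (limma adjusted p = 0.081). Without E18.5 control replicate 3, 5 members were called: Rpsa, Rpl14, Rps9, Rps25 and Rpl11. The share of all genes called in that fit, and in the fits that follow, is not given here. Other fits to all 20 arrays did call members: array weights called 8, among them Rpsa (limma adjusted p = 0.00228) and Rps9 (0.00604), the fit with no dim filter called Rpl10a (0.0135), and the mean of all single-gene probe sets called Rpl22 (0.0246).

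Averaged over the 45 members, each array's mean log2 value lay between 13.24 and 13.30 in E16.5 controls, 13.25 and 13.32 in the mutants of that age, 13.09 and 13.17 in E18.5 controls, and 13.25 and 13.29 in E18.5 mutants. Every E18.5 control lay below every array of the other groups. The difference was larger in the 10 members with a mean under 13: their mean was 9.24 ± 0.05 (SD, n = 5) in E16.5 controls, 9.30 ± 0.08 in mutants of that age, 8.75 ± 0.07 in E18.5 controls and 9.07 ± 0.08 in E18.5 mutants. For the 35 brighter members the same 4 means ran from 14.38 to 14.46, and E18.5 control replicate 3 lay within the mutant range.

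**Figure D3:**
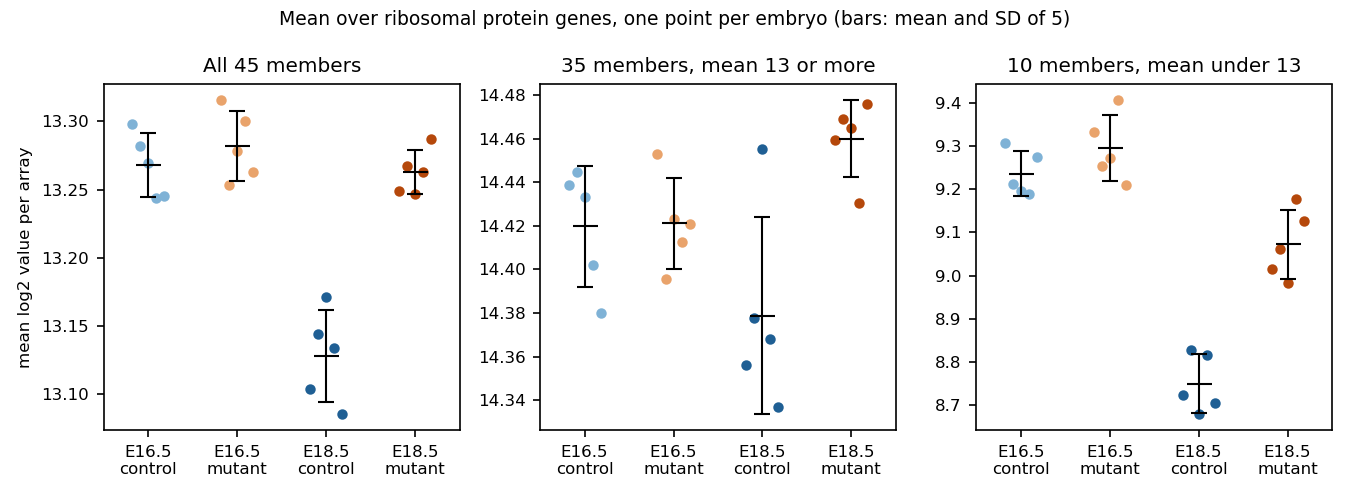
Mean log2 value per array (y axes, each with its own range) over all 45 members, over the 35 with a mean of 13 or more, and over the 10 with a mean under 13, by group, with the mean and SD of 5 animals. The E18.5 controls lie below the other groups in the left and right panels; in the middle panel 1 of them, at 14.46, lies among the E18.5 mutants.

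The size of a difference went with the brightness of the probe set. The array holds 100 probe sets that name a single ribosomal protein gene, 86 of which passed the dim threshold. Of the 12 with a mean between 4 and 10, 7 fell in controls, where 35.4% of all probe sets of that brightness did, with a median change of -0.65. Medians were -0.24 for the 12 between 10 and 13, -0.08 for the 14 between 13 and 14, -0.02 for the lower 24 and -0.01 for the upper 24 of those above 14. The E18.5 mutant difference ran from a median of 0.32 in the dimmest class to 0.04 in the brightest. Of the 12 dimmest, 3 were higher in E18.5 mutants, where 15.5% of all probe sets of that brightness were. Over all probe sets, members or not, the median absolute change in controls also ran from 0.46 between 4 and 10 to 0.05 above 14. The median absolute E18.5 mutant difference ran from 0.21 to 0.06 over the same classes. Most of the 159 probe sets above 14 are themselves ribosomal protein ones. Besides the 24 and 24 single-gene ones, 29 and 33 name a ribosomal protein gene with other genes. The 0.05 and 0.06 are therefore no background apart from ribosomal protein genes. The highest value in the whole table was 15.61. The 117 other genes with a mean of 13 or more had a median absolute change in controls of 0.20, against 0.06 for the 35 bright members, and 60.7% of the 117 were called. Whether saturation near the top of the range limits the bright members was not tested.

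Probe sets of the same gene gave mixed values. In 19 members with several passing single-gene probe sets, the dimmest changed more in size than the brightest in 16 for the ages in controls and in 11 for the E18.5 mutant difference. For Rpl41, the brightest probe set (mean 14.30) changed by -0.19 in controls and the dimmest (mean 7.12) by -1.02 (limma adjusted p = 0.00156), but one at 13.11 by -0.08. For Rps24 the E18.5 mutant difference was 0.05 at a mean of 14.40 and 0.0049 at 7.78, and for Rpl7 it was 0.07 at 14.51 and 0.03 at 12.85. Rpl13a, a member known for a second role in silencing inflammatory messages, changed by -0.06 at 15.12 and -0.41 at 12.50, and in E18.5 mutants by 0.08 and 0.36. Rpl22 at 10.85 differed by 0.49 between E18.5 mutants and controls (limma adjusted p = 5.61e-05) against 0.13 at 13.63, and was called when the mutant effects of both ages were tested against each other (0.39).

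Counting probe sets in place of genes, 17 of the 86 single-gene probe sets were higher in E18.5 mutants and none was lower, against 17% and 14.1% of all 13510 probe sets. In controls, 19 fell and 3 rose with age, against 36.6% and 31.7%, and in mutants 10 fell and 6 rose, against 29.1% and 24.8%. None was called at E16.5 (0.0296% of all probe sets higher, 0.192% lower), and 1 was called for the difference between the mutant effects (2.75% higher, 3.7% lower). Of 93 probe sets that name a ribosomal protein gene with other genes, 18 were higher and none lower in E18.5 mutants, and 21 fell and 5 rose in controls. For Rpl12, Rpl14 and Rps25 the shared probe sets moved the same way by less. The 2 for Rpl12 changed by -0.19 and -0.31 in controls and by 0.24 and 0.28 in E18.5 mutants, and the 5 for Rpl14 by -0.16 to -0.28 and by 0.20 to 0.29. That for Rps25 changed by -0.16 and 0.17, while the bright shared probe sets of Rpl37 were uncalled. The signal of such probe sets cannot be divided between a gene and its pseudogenes. The shared probe set of Rps27 read 14.91 and rose by 0.23 in controls, while its dim single-gene probe set was uncalled.

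**Figure D4:**
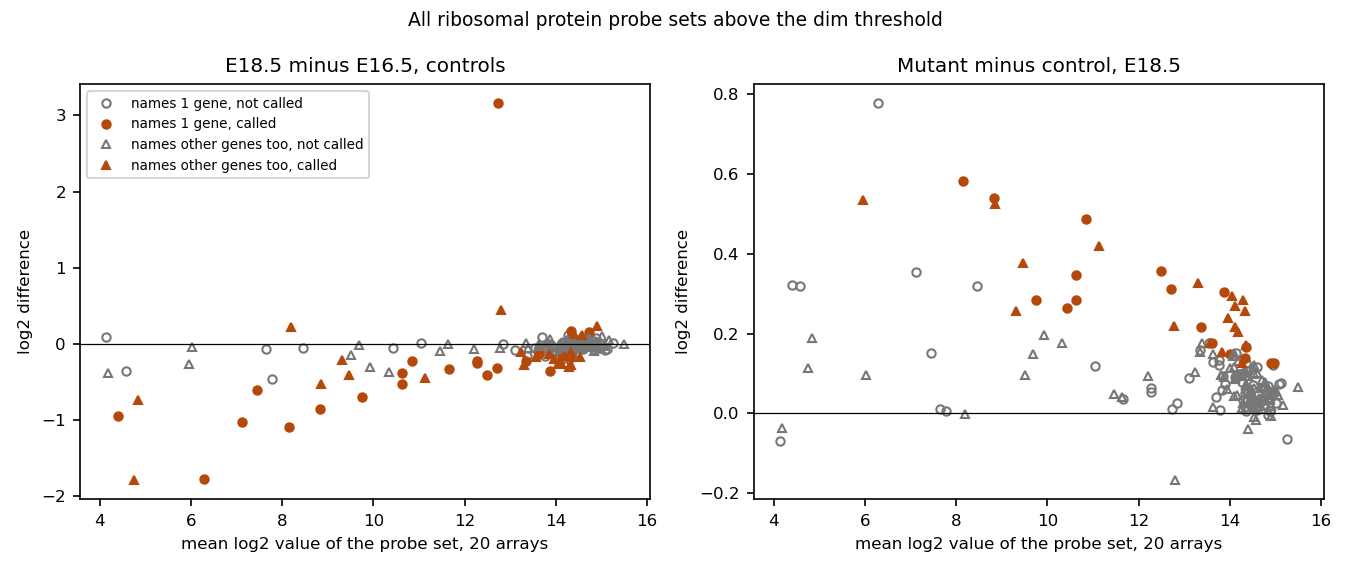
Log2 difference (y axes) against mean log2 value over 20 arrays (x axes) for all ribosomal protein probe sets above the dim threshold, for E18.5 minus E16.5 in controls and for mutant minus control at E18.5; circles name 1 gene, triangles name other genes too, and filled symbols are called. Differences are widest at the dim end and narrower above a mean of 14; the point at 3.16 is an Rps9 probe set whose E16.5 values ran from 7.84 to 14.03.

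Other genes of ribosome production were fitted in the same way. Their counts stand against the shares of all genes given above, 35.5% lower and 35.3% higher in controls and 18.6% higher and 15.9% lower in E18.5 mutants. Of 63 ribosome biogenesis genes tested, 58 fell (92.1%) and 3 rose in controls between the ages, with a median of -0.86, and 30 were higher (47.6%) and 1 lower in E18.5 mutants, with a median of 0.26. Among them were Nop58, a component of box C/D ribonucleoproteins that guide RNA methylation (-1.92 in controls and 0.88 in E18.5 mutants), Fbl, the methyltransferase of those particles (-1.52 and 0.66), and Ncl, the nucleolar protein nucleolin (-0.81 and 0.38). Sbds, which helps to mature the large subunit, ran opposite, at 0.56 in controls and -0.41 in mutants. Rrp12, a factor for export and maturation of both subunits, read 5.01 in E16.5 controls, and its E18.5 means (3.06 ± 0.20 in controls and 3.89 ± 0.55 in mutants, SD, n = 5) lie under the dim threshold, so no size is given for its fall. Of 13 RNA polymerase I genes, 8 fell (61.5%) and 1 rose in controls, and 4 were higher (30.8%) in E18.5 mutants. Without E18.5 control replicate 3, 3 of the 13 were higher (23.1%), near the 22.9% of all genes in that fit. In the same fit 31 of the 63 ribosome biogenesis genes were higher (49.2%). Among the RNA polymerase I genes, values with all arrays follow. The largest subunit, Polr1a, changed by -1.27 and 0.37, Polr1b by -1.23 and, uncalled, 0.25, and the promoter factor Taf1d by -1.12 and 0.43.

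Of 74 mitochondrial ribosomal protein genes, which serve a separate ribosome, 60 fell (81.1%) and 1 rose in controls and 17 were higher (23%) and 1 lower in E18.5 mutants, so the share higher was near that of all genes. Without E18.5 control replicate 3, 33 of the 74 were higher (44.6%), where 22.9% of all genes were. Mrps25 changed by -1.33 and 0.55, and Mrpl14 ran opposite at 0.64 and -0.48. Of 24 initiation factor genes, 18 fell (75%) and 1 rose in controls, and 2 were higher (8.33%, under the share of all genes) and 1 lower in E18.5 mutants; without that array 6 were higher (25%). The release factor Gspt1, on that list, fell by 0.78 and Eif4e, the cap-binding protein, by 0.77 in controls. Of 20 other genes with TOP messages, 8 fell (40%) and 4 rose, and 6 were higher (30%) in E18.5 mutants with none lower. Without E18.5 control replicate 3, 7 of the 20 were higher (35%) and none lower. Npm1, the nucleolar chaperone nucleophosmin, was the partner with the largest values, at -0.68 in controls and 0.39 in E18.5 mutants. Eef2, the elongation factor that moves the ribosome along the message, rose by 0.27 in controls. At E16.5 no gene of these lists was called, and the largest single values were Polr1e at 0.27 and Rrp12 at 0.23.

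Of 18 genes of the mTOR and 4E-BP list, upstream regulators of ribosome production, 5 rose and 2 fell in controls, and 1 was higher and 2 lower in E18.5 mutants; 38.9% were called in controls and 16.7% in E18.5 mutants, against 70.9% and 34.5% of all genes. Without E18.5 control replicate 3, 2 were higher and 2 lower. Deptor, an inhibitor of mTOR, rose by 2.75 in controls and was lower in E18.5 mutants, at -1.81. Of 10 genes of the Myc and Max network, 5 rose (50%) and 4 fell (40%) in controls, and 2 were higher (20%) and 2 lower (20%) in E18.5 mutants, and without that array 3 were lower. Mycn, which drives growth of the fetal lung, changed by -1.79 in controls and 1.30 in E18.5 mutants, while Myc fell by 1.47 in controls and was at 0.05 in mutants, uncalled.

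**Figure D5:**
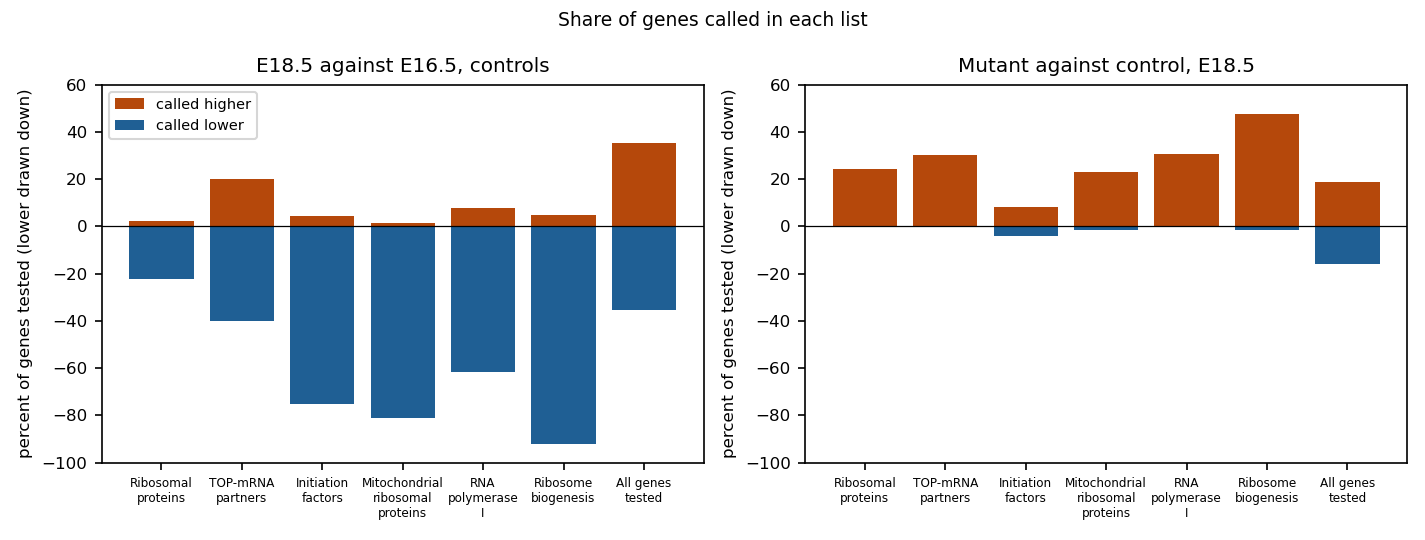
Percent of the tested genes of each list called higher (up) or lower (drawn down) for E18.5 against E16.5 in controls and for mutant against control at E18.5, with all genes tested at the right. In controls 92.1% of ribosome biogenesis genes and 22.2% of ribosomal protein genes are lower; in E18.5 mutants 47.6% and 24.4% are higher.

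Genes of dividing cells changed in the same directions. All 22 mitosis genes tested fell in controls, with a median of -2.39, and all 22 were higher in E18.5 mutants, with a median of 1.04; all 21 DNA replication genes did the same, with medians of -2.07 and 0.89. Mean mitosis levels per array ran from 10.33 to 10.54 in E16.5 controls, 10.01 to 10.51 in their mutants, 7.88 to 9.22 in E18.5 controls and 8.49 to 9.79 in E18.5 mutants. Among E18.5 mutants, 3 of 4 endothelial, 2 of 5 lung mesenchyme and 2 of 3 tested red blood cell markers were lower, and 2 of 5 lung epithelial markers higher. Mean red blood cell levels ran from 4.83 to 6.63 in E18.5 controls (4.83 to 5.23 without replicate 3) and from 4.17 to 4.96 in mutants, so that the difference of the means was -0.80 with that array and -0.49 without it. Without it 2 of 3 red blood cell markers were again lower, and 4 of 4 endothelial markers were. Hba-a1 was dim in all arrays. None of 5 heart muscle or 4 macrophage markers was called at E18.5, and all 4 thymus markers were dim. The part of cell composition in the ribosomal protein differences was not tested.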

How the data were processed

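RNA of 20 left lung lobes was measured on Affymetrix arrays. The authors deposited log2 values made with GCRMA, per the submitters' processing notes. GCRMA corrects background, scales arrays to each other and summarises the probes of a set. The version was not given in the sources used here, and nothing was transformed further. Array medians ran from 5.70 to 5.87. The number of arrays, 5 per group, limits the precision.

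Of 22690 probe sets, 20380 name 1 gene. Genes (12393) were represented by their brightest single-gene probe set, and the 8068 above 4 in at least 5 arrays were tested. A model with 4 group means over the 20 arrays was fitted in R 4.3.3 with lmFit and eBayes of limma 3.58.1. Called means a two-sided p under 0.05 after Benjamini-Hochberg adjustment over every tested gene. "Rose", "fell", "higher" and "lower" are used of called genes, apart from values per array. Probe sets were fitted in the same way (13510 above the threshold). The code was tested on simulated data. Promoter sequences are RefSeq's (GRCm38.p6). Plots were made in Python 3.11.15 (matplotlib 3.10.9).

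Members and gene lists were chosen with earlier results of these data known. The rule for named genes took, per comparison, up to 6 called members with the largest rise and fall, the 3 brightest and 3 dimmest members, the paralogs, those nearest the filter, and per list up to 2 called genes with the largest rise and fall; other genes named were chosen after their values were seen. Alternatives covered the filter, normalization, choice of probe set, variance model, array weights, replicate number, sex, thresholds, arrays in the fit and leaving out each array.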

Additional observations from a re-analysis of the deposited data

Results flagged for a closer look

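In 22 of 180 checks of the 45 members within a group of 5 (12.2%), the highest or lowest array stood apart by Dixon's criterion, which chance alone meets in about 1 in 20 groups. E18.5 control replicate 3 accounts for 9 of them. It read high for Rpsa (13.94 against 13.48 to 13.61 in the other controls), Rps15 (14.58 against 14.29 to 14.36), Rps3 (14.03 against 13.81 to 13.86), Rpl4 (14.85 against 14.62 to 14.66), Rpl13a (15.15 against 15.05 to 15.07) and Rps27 (4.51 against 4.08 to 4.18). It read low for Rpl12 (4.42 against 5.31 to 5.38), Rpl7 (14.38, the other 4 reaching 14.53) and Rps28 (14.71 against 14.88 to 14.89). The same array had the highest mean over mitosis genes and over red blood cell genes of its group; the part of either in these values was not tested.

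The arrays numbered 1 account for 10 more. Rpl4 was high in replicate 1 of the E16.5 controls (14.91), E16.5 mutants (14.93) and E18.5 mutants (14.94). Rpl7a was high in replicate 1 of the E16.5 controls (14.55) and E16.5 mutants (14.55), and Rps29 was low in replicate 1 of the E16.5 controls (15.02) and E18.5 mutants (15.01). Replicate 1 was also high for Rplp0 in E16.5 mutants (15.02), Rpl37a in E18.5 mutants (15.02) and Rps20 in E18.5 controls (14.96). The other 3 were Rpl37 in E16.5 control replicate 3, at 11.13 against 10.57 to 10.73, Rplp2 in E16.5 mutant replicate 4, at 15.07 against 15.11 to 15.13, and Rps4x in E16.5 mutant replicate 2, at 14.80 against 14.86 to 14.88.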

How the results depend on the processing

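No call changed sign in the fits checked gene by gene, while medians near 0 did, as listed. The fit with shared probe sets added was not checked in that way. Members called at E18.5 (11) became 7 under quantile normalization, 7 with only the 2 groups compared, 5 of 17 without probe sets of the _s, _x and _a kinds, 4 at an adjusted p under 0.01, 17 with an intensity trend and robust variance and 21 with array weights. Members called in controls between ages (11) became 17 without the dim filter, 20 with median centring, 6 of 17 without those probe sets and 19 with array weights. The interaction (none) gave 1 without the filter, 1 with the mean of all single-gene probe sets, 8 with array weights, and, in alternatives chosen after seeing the data, 2 with the dimmest probe set per gene and 1 when shared probe sets were added. These counts are given without the share of all genes called in the same fit. They do not show whether the members alone or the whole fit changed. Median centring also moved the median change over all genes, to -0.09 in controls and -0.05 in mutants. The cause of the changed counts was not tested.

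The yardstick for a moved median was 0.0276, the pooled within-group SD of each array's median over the members. It is not the error of a median difference. Medians that moved by more than this were, at E16.5, 0.0408 with sex as a covariate. At E18.5 they were 0.0523 (quantile), 0.264 (without those probe sets) and 0.0644 (shared probe sets). In controls they were -0.118 (median centring), -0.124 (without those probe sets) and -0.0793 (dimmest probe set). In mutants they were 0.0084 (quantile), -0.0109 (median centring) and -0.0103 (without those probe sets). For the interaction they were 0.0588 (quantile), 0.149 (without those probe sets), 0.0437 (sex) and 0.0589 (shared probe sets).

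Leaving out each array in turn gave 0 calls at E16.5, 7 to 13 at E18.5, 9 to 15 in controls, 6 to 7 in mutants and 0 to 5 for the interaction, with medians of -0.0035 to 0.02, 0.07 to 0.11, -0.06 to -0.04, 0.03 to 0.04 and 0.06 to 0.11. At E18.5 the calls of Rps25, Rpl14, Rpl7l1 and Rpsa held under each left-out array and each alternative that was checked gene by gene. The fit with shared probe sets added was not among those checked. The calls of Rpl8, Rps6 and Rps9 held under each left-out array.

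The replicate block gave 0, 13, 11, 7 and 0 calls in the same order; Rpl22 lost its call in controls (adjusted p = 0.052). Same-numbered arrays correlated at -0.429 to 0.597 in their deviations from group means. Between controls and mutants, replicates 1 to 5 gave 0.593, 0.169, -0.0958, 0.333 and 0.597 at E16.5. At E18.5 they gave -0.422, -0.284, -0.429, 0.0497 and 0.208. The numbers were not taken as pairs, and whether arrays of the same number share a cause was not tested.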

Other observations

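Another single-gene probe set of Rps9, not used in the comparisons above, read 7.84, 13.89, 8.86, 13.70 and 10.17 in E16.5 controls and 8.78, 14.03, 13.66, 9.56 and 13.82 in E16.5 mutants. All 10 E18.5 arrays read between 13.80 and 14.20 on it. The Rps9 probe set used above read 13.54 to 13.69 in the same E16.5 embryos, so the scatter belongs to 1 probe set of the gene. Its change with age in controls, 3.16 with an SE of 1.11 (limma adjusted p = 0.0169 over 13510 probe sets), rests on that scatter.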
